A study of Mus musculus with 12 samples.

Results

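The genes described here are the 5 NF-kB subunits Nfkb1, Nfkb2, Rel, Rela and Relb and 5 genes of the inhibitor and feedback arm, Nfkbia, Nfkbie, Nfkbiz, Tnfaip3 and Bcl3. Each was taken by its gene name from a table of raw read counts. All 10 were found, 1 row each among 56722 genes, and all 10 were among the 19821 genes with enough counts to be tested. The table covers whole kidneys of Pod-TRECK mice, in which diphtheria toxin injures podocytes, the epithelial cells of the glomerular filter. Of 4 groups with 3 biological replicates each, 1 was the untreated control and 3 had an intraperitoneal dose of 100 ng diphtheria toxin, with kidneys taken 5, 14 or 21 days later. All groups, control included, carry the Pod-TRECK genotype, and the control had no vehicle injection. Not given in the sources used here are strain, sex, age, the promoter behind the toxin receptor and whether each replicate was 1 animal.

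NF-kB is a family of transcription factors that work as dimers of these 5 subunits. In the canonical pathway, receptors for tumour necrosis factor, interleukin 1 or bacterial products activate a kinase complex that marks the inhibitors IkB-alpha (Nfkbia) and IkB-epsilon (Nfkbie) for destruction, and Rela with the product of Nfkb1 enters the nucleus. In the non-canonical pathway, the kinase encoded by Map3k14 acts through the kinase encoded by Chuk to process the Nfkb2 precursor, whose product pairs with Relb. Many of the family's own genes are targets of NF-kB: Nfkbia, Nfkbie and Tnfaip3, a ubiquitin-editing enzyme, dampen the signal, while Nfkbiz and Bcl3 encode nuclear IkB proteins that can raise or lower transcription with their partner subunits. In the kidney the pathway is known for its part in tubular and glomerular inflammation. The measurements are of transcripts and do not show whether the proteins were in the nucleus.

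Total counts ran from 31023852 to 46420299 per library. Levels are given as CPM, a gene's count relative to its library's total after scaling of that total by TMM factors, which ran from 0.778 to 0.802 in controls and from 1.31 to 1.32 at day 14. Day-21 replicate 2 stood apart from its group: its level of Nphs1, which encodes nephrin of the podocyte slit diaphragm, was 16.5 CPM, against 0.412 and 0.517 CPM in its fellow replicates. Controls had 20.04 to 24.6 CPM of Nphs1. Day-21 changes from control of the NF-kB subunits and of the inhibitor and feedback genes are therefore given with and without day-21 replicate 2. For the lists of other pathway genes, the numbers called at day 21 are given both ways. Day-21 changes of single genes on those lists, apart from Sod2, are given only with this library included. The same holds for day-21 calls of marker genes. Mitochondrial transcripts took 22.4 to 23.7% of counts in controls, 18.2 to 19.99% at day 5, 8.98 to 9.46% at day 14 and 11.8 to 21.1% at day 21. The listed markers of proximal tubule, loop and distal tubule, collecting duct and endothelium, and all 7 of podocytes, had counts in every control library. The 8 proximal tubule markers summed to 8895 to 9883 CPM in controls, 5753 to 6608 CPM at day 5 and 1150 to 1257 CPM at day 14, and to 1470, 6504 and 1092 CPM in day-21 replicates 1, 2 and 3. In edgeR at an adjusted p under 0.05, 0 of the 8 were called at day 5, 8 fell at day 14 and 6 at day 21. Of all genes, 14.9, 60.0 and 42.8% were called in either direction. Collecting duct markers (5) summed to 249 to 327 CPM in controls, 146 to 171 CPM at day 5, 201 to 248 CPM at day 14 and 373 to 552 CPM at day 21. The part of these marker differences in the NF-kB gene levels was not tested. In bulk tissue, fewer cells of a type and less RNA per cell cannot be told apart.

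The family rose after toxin, was highest at day 14 and was lower again at day 21. At day 5, 9 of the 10 genes rose and 1, Rela, did not pass (adjusted p = 0.109). Over all genes tested, 14.9% were called at day 5 and 9.77% were called higher, and the median log2 fold change was 1.29 for the 10 genes against 0.004 for all genes. At day 14 all 10 rose, with a median of 2.85, where 60.0% of all genes were called, 31.2% as higher, and the median of all genes was 0.077. At day 21 all 10 were above control, with a median of 1.57, where 42.8% of all genes were called, 24.3% as higher, and the median of all genes was 0.067. All 3 toxin libraries lay above all 3 controls for 10 of the genes at day 5 and at day 14 and for 9 at day 21, as did 25.2, 38.6 and 24.3% of all genes. The 3 comparisons share their control libraries. Tested for any difference among the 4 groups, all 10 passed, as did 66.1% of all genes. Calls are at an adjusted p under 0.05 in edgeR's quasi-likelihood test across all genes and all 12 libraries, and changes are log2 fold changes ± SE with n = 3 libraries per group. Without day-21 replicate 2, all 10 genes were called higher at day 5, at day 14 and at day 21, where 17.4, 34.7 and 33.2% of all genes were.

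**Figure D1:**
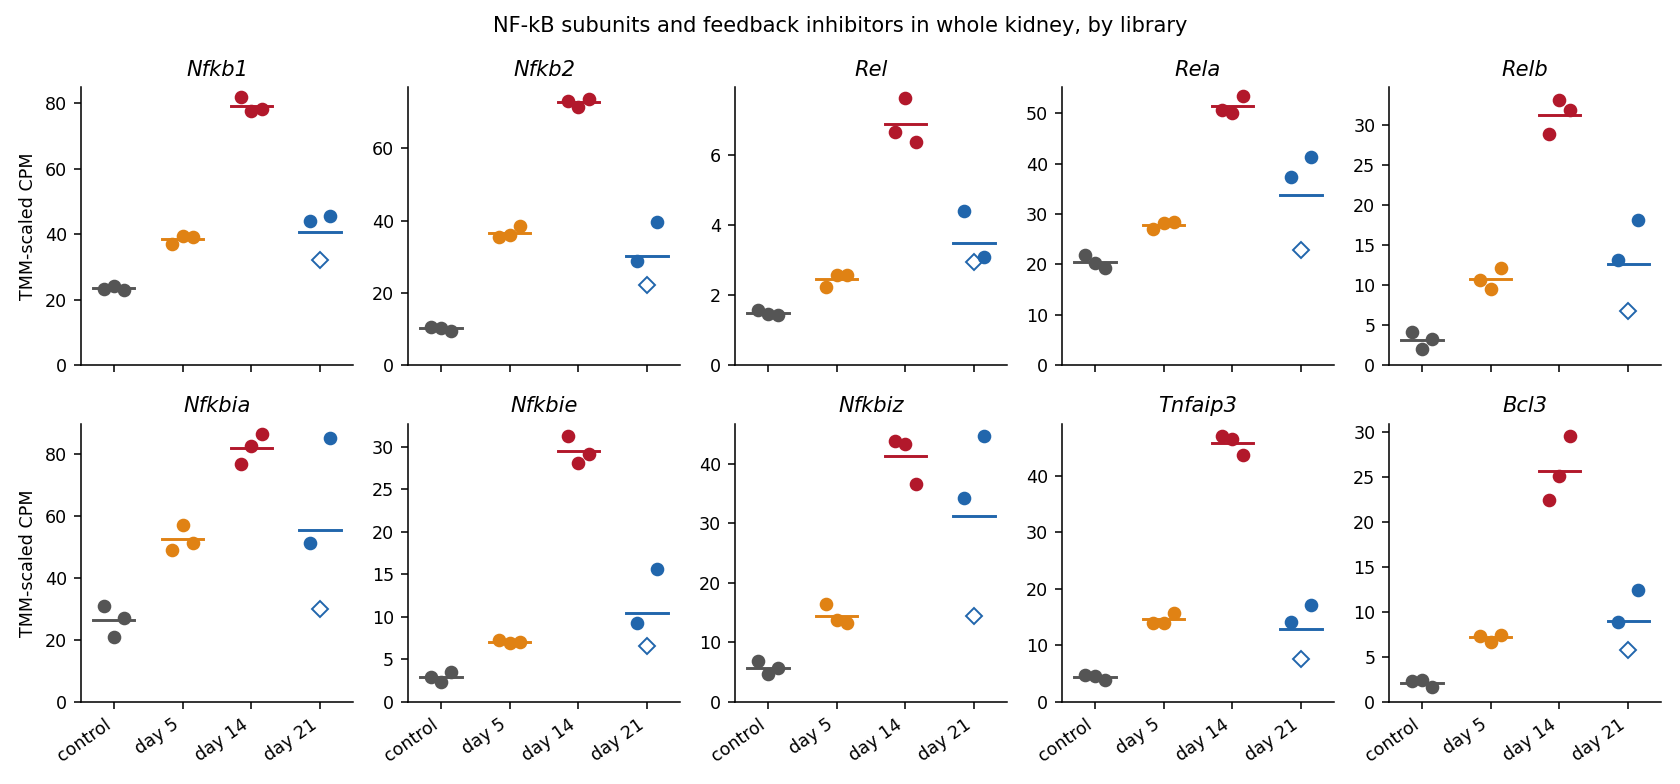
Level of each gene in TMM-scaled CPM (vertical axes start at 0 and differ between panels) in the 12 libraries, by group; bars are group means and the open diamond is day-21 replicate 2. In every panel the 3 day-14 libraries lie above all control libraries, and the open diamond is the lowest day-21 library.

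Nfkb2 (chromosome 19, positions 46292759 to 46300824, plus strand, GRCm39) encodes the precursor of the non-canonical pathway. It was at 10.6, 10.4 and 9.54 CPM in controls, 35.3, 36.0 and 38.5 CPM at day 5, 73.1, 71.5 and 73.7 CPM at day 14, and 28.7, 22.2 and 39.7 CPM at day 21. No toxin library overlapped the controls, and the day-5 and day-14 libraries formed tight, separate groups. Its log2 fold change was 1.85 ± 0.17 at day 5 (adjusted p = 7.83e-05), 2.84 ± 0.17 at day 14 (adjusted p = 2.04e-06) and 1.57 ± 0.17 at day 21 (adjusted p = 0.000278), or 1.74 ± 0.11 without day-21 replicate 2. The long non-coding RNA gene 4833438C02Rik overlaps it on the other strand and was at 4.04 to 4.42 CPM in controls, 2.46 to 3.86 CPM at day 5, 8.77 to 10.7 CPM at day 14 and 4.59 to 8.77 CPM at day 21. The strand setting of the counting is not given in the sources used here, so reads of this pair cannot be told apart, and their part in the change of Nfkb2 was not tested.

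Relb (chromosome 7, positions 19340142 to 19363363, minus strand) encodes the partner of processed Nfkb2. Its level was 4.15, 2.08 and 3.24 CPM in controls, 10.6, 9.57 and 12.2 CPM at day 5, 28.9, 33.1 and 31.8 CPM at day 14, and 13.1, 6.81 and 18.1 CPM at day 21. All toxin libraries were above all controls, and the day-21 libraries were the most spread. It rose by 1.77 ± 0.32 at day 5 (adjusted p = 0.00443), 3.31 ± 0.33 at day 14 (adjusted p = 3.06e-05) and 2.01 ± 0.32 at day 21 (adjusted p = 0.00178), the last becoming 2.29 ± 0.22 without day-21 replicate 2.

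Nfkb1 (chromosome 3, positions 135290416 to 135397308, minus strand), the canonical partner of Rela, changed less. It was at 23.4, 24.3 and 23.0 CPM in controls, 36.9, 39.5 and 39.1 CPM at day 5, 81.9, 77.7 and 78.1 CPM at day 14, and 44.0, 32.0 and 45.6 CPM at day 21. The groups of day 5 and day 14 lay apart from the controls and from each other. The log2 fold changes were 0.71 ± 0.11 (adjusted p = 0.00214), 1.75 ± 0.12 (adjusted p = 3.42e-06) and 0.78 ± 0.11 (adjusted p = 0.00114) at days 5, 14 and 21, the last becoming 0.92 ± 0.06 without day-21 replicate 2.

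Rela (chromosome 19, positions 5687511 to 5698158, plus strand), the subunit that carries the main activation domain of the canonical dimer, changed least of the 10 at each of the 3 days, although without day-21 replicate 2 Nfkb1, at 0.92, was below Rela, at 0.94 ± 0.07, at day 21. Its libraries were at 21.9, 20.3 and 19.3 CPM in controls, 27.0, 28.2 and 28.4 CPM at day 5, 50.6, 50.1 and 53.5 CPM at day 14, and 37.4, 22.8 and 41.4 CPM at day 21. The day-5 libraries lay above all controls, and the difference of 0.44 ± 0.17 did not pass (adjusted p = 0.109). Without day-21 replicate 2 it passed, at 0.45 ± 0.07 (adjusted p = 0.000377), as it did in a fit of only the 6 control and day-5 libraries (adjusted p = 0.00126). Rela rose by 1.33 ± 0.17 at day 14 (adjusted p = 0.000124) and by 0.73 ± 0.17 at day 21 (adjusted p = 0.00879, or 0.0747 when only the 6 control and day-21 libraries were fitted).

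Rel (chromosome 11, positions 23686847 to 23720970, minus strand) encodes c-Rel, a subunit best known from lymphoid and myeloid cells, and had the lowest level of the family. It was at 1.57, 1.45 and 1.42 CPM in controls, 2.24, 2.57 and 2.56 CPM at day 5, 6.64, 7.61 and 6.36 CPM at day 14, and 4.38, 2.95 and 3.08 CPM at day 21. The raw counts behind these were 46 to 53 per control library and 261 to 344 per day-14 library. It rose by 0.73 ± 0.18 (adjusted p = 0.0194), 2.21 ± 0.18 (adjusted p = 9.37e-06) and 1.23 ± 0.18 (adjusted p = 0.00109) at days 5, 14 and 21, the last becoming 1.32 ± 0.18 without day-21 replicate 2. The day-5 call was lost without any 1 of control replicates 1, 2 and 3 or day-5 replicates 2 and 3, with adjusted p = 0.0563, 0.0722, 0.0874, 0.0668 and 0.0746.

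**Figure D2:**
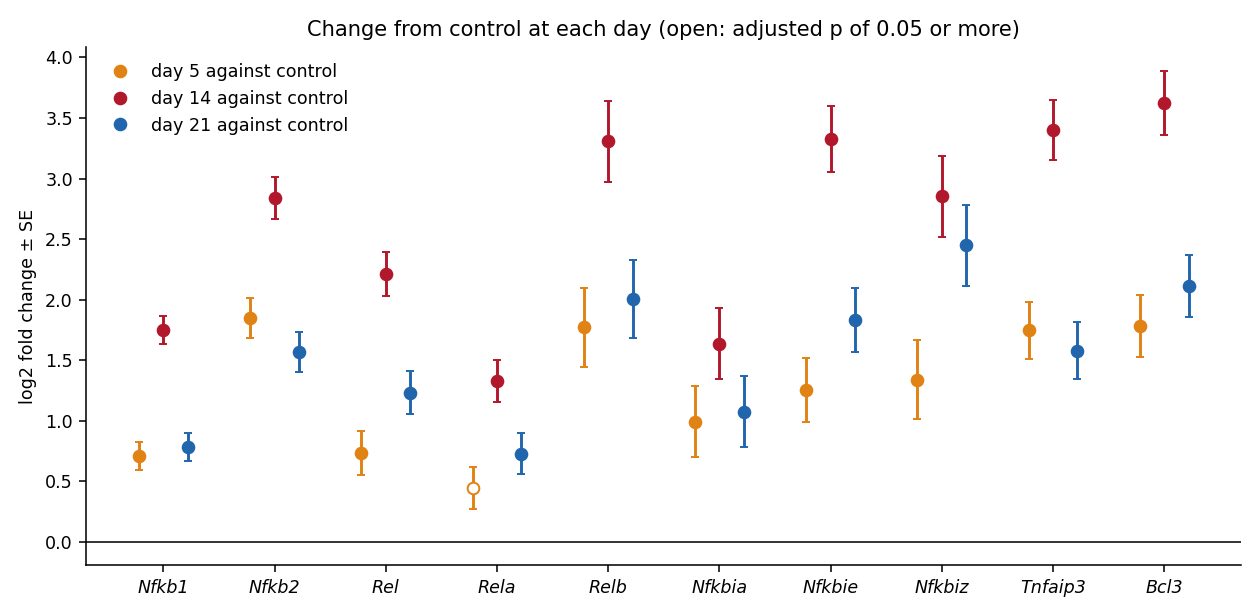
Log2 fold change against control (points) with its SE (bars) for each gene at day 5 (orange), day 14 (red) and day 21 (blue), 3 libraries per group; open points had an adjusted p of 0.05 or more. Rela at day 5 is the single open point, and day 14 is the highest point of every gene, from 1.33 for Rela to 3.62 for Bcl3.

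Among the inhibitors, Tnfaip3 (chromosome 10, positions 18876658 to 18891405, minus strand), whose product removes activating ubiquitin chains from the receptor complexes, was at 4.69, 4.52 and 3.83 CPM in controls. It was at 14.0, 14.0 and 15.8 CPM at day 5, at 47.1, 46.6 and 43.8 CPM at day 14, and at 14.1, 7.54 and 17.2 CPM at day 21. It rose by 1.75 ± 0.24 at day 5 (adjusted p = 0.000751), by 3.40 ± 0.25 at day 14 (adjusted p = 5.31e-06) and by 1.58 ± 0.24 at day 21 (adjusted p = 0.0013), or 1.84 ± 0.11 without day-21 replicate 2. The toxin libraries did not overlap the controls at any of the 3 days.

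Bcl3 (chromosome 7, positions 19542387 to 19556695, minus strand), a nuclear IkB protein that binds dimers of the processed Nfkb1 and Nfkb2 products, had the largest rise of the 10 at day 14. Its level was 2.25, 2.38 and 1.61 CPM in controls, 7.32, 6.66 and 7.46 CPM at day 5, 22.5, 25.1 and 29.5 CPM at day 14, and 8.84, 5.78 and 12.4 CPM at day 21. The log2 fold changes were 1.78 ± 0.26 (adjusted p = 0.00108), 3.62 ± 0.27 (adjusted p = 5.36e-06), a fold of 12.3, and 2.12 ± 0.26 (adjusted p = 0.000492), or 2.34 ± 0.19 at day 21 without replicate 2. Gm16175 and Gm16174 overlap Bcl3 on the other strand, with 20 and 148 counts over all 12 libraries against 5449 for Bcl3.

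Nfkbie (chromosome 17, positions 45866629 to 45874095, plus strand), which encodes IkB-epsilon, was at 2.97, 2.38 and 3.49 CPM in controls and at 7.23, 6.85 and 6.97 CPM at day 5. At day 14 it was at 31.3, 28.1 and 29.2 CPM, and at day 21 at 9.23, 6.58 and 15.6 CPM. It rose by 1.25 ± 0.26 (adjusted p = 0.00934), 3.32 ± 0.27 (adjusted p = 1.01e-05) and 1.83 ± 0.26 (adjusted p = 0.00108), or 2.07 ± 0.20 at day 21 without replicate 2. Its step from day 5 to day 14, 2.07 ± 0.26 (adjusted p = 0.000207), was the largest of the family.

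Nfkbia (chromosome 12, positions 55536195 to 55539432, minus strand), the gene of IkB-alpha, was at 31.0, 20.9 and 27.0 CPM in controls, 48.8, 57.1 and 51.2 CPM at day 5 and 76.6, 82.5 and 86.4 CPM at day 14. At day 21 the libraries were spread over 51.1, 30.0 and 85.1 CPM, and day-21 replicate 2 lay within the control range. It rose by 0.99 ± 0.29 at day 5 (adjusted p = 0.0428), 1.64 ± 0.30 at day 14 (adjusted p = 0.000805) and 1.07 ± 0.29 at day 21 (adjusted p = 0.0155). The day-5 call was lost with libraries scaled to their totals alone (adjusted p = 0.0652), and without any 1 of the 9 control, day-5 or day-14 libraries (adjusted p from 0.0613 to 0.155). It passed without day-21 replicate 2, at 0.99 ± 0.18 (adjusted p = 0.00113). At day 21 the value was 1.36 ± 0.19 without replicate 2, while without replicate 3 it was 0.62 and did not pass (adjusted p = 0.0549). The day-21 call was also lost without control replicate 2, at 0.89 (adjusted p = 0.0649), without control replicate 3, at 1.05 (0.0502), and with only the 6 control and day-21 libraries fitted, at 1.08 (0.0909).

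Nfkbiz (chromosome 16, positions 55631738 to 55659262, minus strand), the nuclear cofactor IkB-zeta, was at 6.79, 4.61 and 5.74 CPM in controls, 16.5, 13.7 and 13.2 CPM at day 5 and 43.9, 43.4 and 36.7 CPM at day 14. At day 21 it was at 34.3, 14.5 and 44.8 CPM, so that replicate 1 lay just below and replicate 3 just above all day-14 libraries, and replicate 2 lay within the day-5 range. It rose by 1.34 ± 0.33 (adjusted p = 0.0196), 2.85 ± 0.34 (adjusted p = 7.47e-05) and 2.45 ± 0.33 (adjusted p = 0.000829), or 2.78 ± 0.16 at day 21 without replicate 2. The day-5 call was lost in limma-voom (adjusted p = 0.0702) and without control replicate 2 (0.0818), control replicate 3 (0.0743) or day-5 replicate 1 (0.0639).

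The days were also compared with each other. From day 5 to day 14, 9 of the 10 genes rose, where 50.9% of all genes were called and 24.7% were called higher. All 3 day-14 libraries lay above all 3 day-5 libraries for all 10, as for 35.4% of all genes. Nfkbia was at 0.64 ± 0.29 (adjusted p = 0.0825), and without day-21 replicate 2, when 29.5% of all genes were called higher, it passed at 0.64 ± 0.17 (adjusted p = 0.00691). It also passed without day-21 replicate 3 (0.0167). From day 14 to day 21, 8 of the 10 fell, where 14.6% of all genes were called and 7.57% were called lower. The groups did not overlap for the same 8, as for 17.7% of all genes in that direction. The median was -1.12 for the 10 genes and 0.03 for all genes. Tnfaip3 had the largest fall, with a log2 fold change of -1.82 ± 0.23 (adjusted p = 0.00132). Nfkbiz, at -0.40 ± 0.31 (adjusted p = 0.389), and Nfkbia, at -0.56 ± 0.29 (adjusted p = 0.199), did not pass. Without day-21 replicate 2 the same 8 genes fell, where 11.4% of all genes did, Nfkbiz was at -0.06 ± 0.15 (adjusted p = 0.801) and Nfkbia at -0.27 ± 0.19 (adjusted p = 0.34). When only the 6 libraries of these days were fitted, 3 of the 8 were called, Nfkb1, Nfkb2 and Tnfaip3. The call for Rela was lost without any 1 of the 9 control, day-5 or day-14 libraries (adjusted p from 0.051 to 0.106). The call for Relb was lost without day-14 replicate 1, 2 or 3 (0.0537, 0.0706 and 0.0568). Nfkbia passed without day-21 replicate 3, at -1.01 (0.0155).

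Between day 5 and day 21 only Nfkbiz passed, at 1.11 ± 0.32 (adjusted p = 0.0273), where 26.9% of all genes were called, 15% as higher. This call was lost without day-5 replicate 1, 2 or 3 (adjusted p = 0.0586, 0.0848 and 0.0903), without day-21 replicate 1 (0.0745) or 3 (0.11), and when the 6 libraries of these days were fitted alone (0.125). Without day-21 replicate 2, 7 of the 10 genes were higher at day 21 than at day 5, where 27.9% of all genes were, with Nfkbiz at 1.45 ± 0.16 (adjusted p = 1.23e-05) and Nfkb2, Nfkbia and Tnfaip3 not passing. Tnfaip3 was at 0.09 ± 0.11 in that fit (adjusted p = 0.479). Without day-21 replicate 3, by contrast, 0 of the 10 were called higher and 1 was called lower, Nfkb2 at -0.53 (adjusted p = 0.0134), against -0.28 with all libraries.

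The proportions of the 5 subunits differed between groups. Per kilobase of the gene length given in the table, their summed level was 11.2 to 12.6 CPM per kilobase in controls, 22.5 to 24.2 at day 5, 47.2 to 48.6 at day 14 and 17.0 to 30.8 at day 21. The shares depend on these lengths, which were 12248 bases for Nfkb1 and 3072 for Rela. Before division by length, controls had 23.0 to 24.3 CPM of Nfkb1 and 19.3 to 21.9 CPM of Rela. Rela made up 55.9 to 57.1% of this summed level per kilobase in controls, 38.2 to 39.9% at day 5, 34.3 to 35.8% at day 14 and 43.7 to 47.0% at day 21. Nfkb2 made up 18.4 to 19.6% in controls, 34.2 to 34.7% at day 5, 32.8 to 33.8% at day 14 and 24.2 to 28.5% at day 21. The ranges of both genes at each day lay wholly outside the control range. Day-21 replicate 2, at 43.7% for Rela and 28.5% for Nfkb2, was close to day-21 replicate 3, at 43.8 and 28.1%. Relb went from 4.48 to 8.19% in controls to 10.4 to 12.5% at day 5 and 15.2 to 17.4% at day 14. Nfkb1 went from 15.2 to 17.2% in controls to 13.2 to 14.0% at day 5 and 13.1 to 14.2% at day 14, and was at 12.1 to 15.4% at day 21. Rel was at 1.67 to 1.69% in controls, 1.34 to 1.501% at day 5, 1.75 to 2.15% at day 14 and 1.34 to 2.33% at day 21. A share of transcripts shows unequal change and does not show that any subunit was constant.

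**Figure D3:**
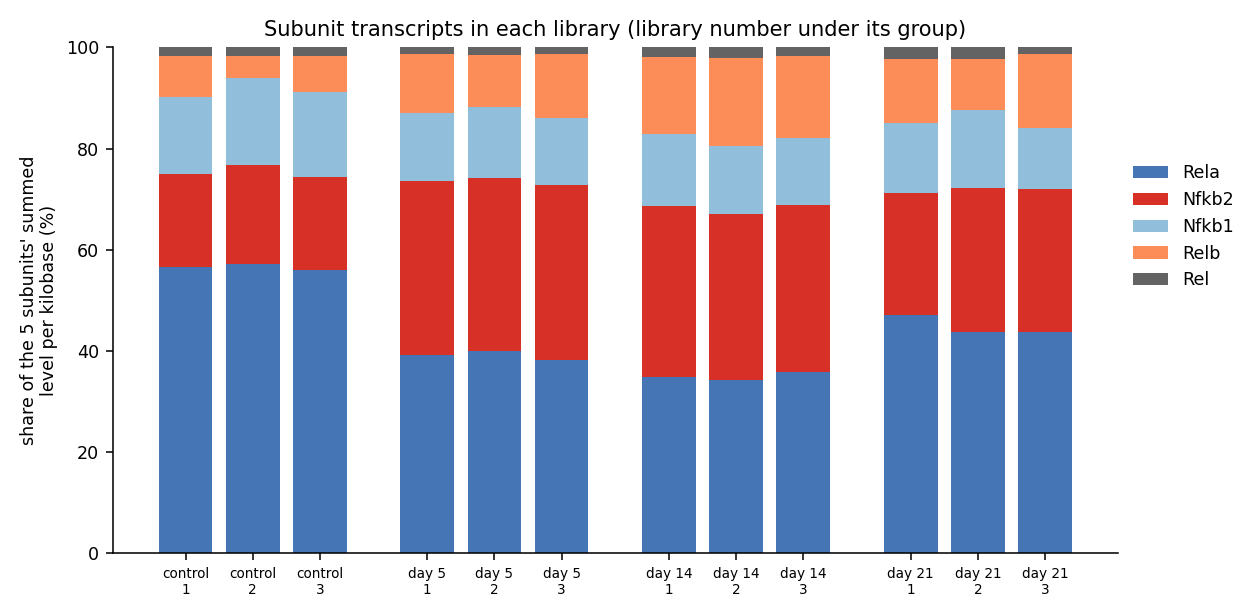
Share of each subunit in the summed level per kilobase of the 5 subunits, in percent, 1 bar per library with its replicate number under its group. Rela (dark blue) takes 55.9 to 57.1% in controls and 34.3 to 35.8% at day 14, and Nfkb2 (red) takes 18.4 to 19.6% and 32.8 to 33.8%.

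Levels per kilobase also set the order within the family, which likewise depends on the gene lengths given. In controls Nfkbia was highest, at 16.4 ± 3.16 (SD, n = 3) CPM per kilobase, then Rela at 6.67 ± 0.433, Nfkb2 at 2.22 ± 0.123 and Nfkb1 at 1.93 ± 0.055, each apart from the next in all libraries. Nfkbie, Bcl3, Relb, Nfkbiz and Tnfaip3 followed between 0.848 and 0.601 with each overlapping the next, and Rel was lowest at 0.198 ± 0.0109. At day 5 the first 4 places were the same, Nfkb1 then overlapping Bcl3, and Nfkb2 had 7.98 ± 0.36. At day 14 Nfkbia, at 50.8 ± 3.05, Rela, at 16.7 ± 0.593, and Nfkb2, at 15.9 ± 0.246, kept these places without overlap, and Bcl3, at 10.4 ± 1.44, stood next. Nfkbie (8.5) overlapped Relb (7.78), and Nfkb1, at 6.47 ± 0.19, overlapped Tnfaip3 (6.34). Rel stayed lowest, at 0.92 ± 0.0882. At day 21 each gene from Rela down to Nfkbie overlapped the next.

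Promoter sequence is shown for genes that rose together, because the family is known to feed back on its own promoters through the 10-base kB motif. RefSeq windows of 300 bases, from 250 before to 50 after an annotated start, were matched by symbol for 7 of the 10 genes, with 10 windows in all. Nfkb1, Relb and Nfkbiz had none and are named only. The NF-kB consensus motif was searched on both strands, with overlapping matches counted. It was present in 8 of the 10 windows and in 6 of the 7 genes, against 8.46% of all 32851 windows of this length and 9.55% of their 27025 genes. The looser pattern GGGNNNNNCC, which contains every consensus match, was in all 10 windows and in 50.8% of all windows. Overlapping windows of Nfkb2 share a consensus match, which is thus counted in each of them. The 10 windows hold 46.4 to 77.6% G and C in their first 250 bases, and that of all windows was not compared. A match describes letters only and is not a measured binding site. The 250 bases before the start are printed here only for 1 window each of Nfkb2, Rel, Nfkbia, Nfkbie and Tnfaip3, all with a consensus match there. Not printed are Rela and the other Tnfaip3 start, without a consensus match, Bcl3, whose match follows the start, and the other Nfkb2 starts. The sequences are from RefSeq (GRCm38.p6, another build than the count table), 5′ to 3′ on the gene's strand, with consensus matches in capitals.
Nfkb2, chr19:46304487-46304736, plus strand: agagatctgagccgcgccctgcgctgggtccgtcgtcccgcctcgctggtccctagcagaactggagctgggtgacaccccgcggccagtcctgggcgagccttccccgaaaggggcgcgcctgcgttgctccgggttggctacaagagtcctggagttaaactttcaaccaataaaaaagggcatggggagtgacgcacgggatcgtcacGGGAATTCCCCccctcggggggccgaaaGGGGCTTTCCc
Rel, chr11:23770970-23771219, minus strand: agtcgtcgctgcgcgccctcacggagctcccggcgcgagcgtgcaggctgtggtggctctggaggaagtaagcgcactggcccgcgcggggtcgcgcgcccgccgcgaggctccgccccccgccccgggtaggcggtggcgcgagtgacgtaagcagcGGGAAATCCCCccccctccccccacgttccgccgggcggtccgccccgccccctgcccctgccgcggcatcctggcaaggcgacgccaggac
Nfkbia, chr12:55492648-55492897, minus strand: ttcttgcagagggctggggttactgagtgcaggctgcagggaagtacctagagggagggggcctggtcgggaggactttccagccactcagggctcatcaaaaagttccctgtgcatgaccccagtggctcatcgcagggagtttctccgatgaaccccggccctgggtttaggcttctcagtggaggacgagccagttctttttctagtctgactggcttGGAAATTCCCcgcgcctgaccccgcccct
Nfkbie, chr17:45555450-45555699, plus strand: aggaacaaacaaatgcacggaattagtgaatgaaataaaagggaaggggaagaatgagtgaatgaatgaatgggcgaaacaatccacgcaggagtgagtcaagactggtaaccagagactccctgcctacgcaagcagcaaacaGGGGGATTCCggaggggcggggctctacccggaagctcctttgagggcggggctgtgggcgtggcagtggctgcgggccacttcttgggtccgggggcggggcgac
Tnfaip3, chr10:19015411-19015660, minus strand: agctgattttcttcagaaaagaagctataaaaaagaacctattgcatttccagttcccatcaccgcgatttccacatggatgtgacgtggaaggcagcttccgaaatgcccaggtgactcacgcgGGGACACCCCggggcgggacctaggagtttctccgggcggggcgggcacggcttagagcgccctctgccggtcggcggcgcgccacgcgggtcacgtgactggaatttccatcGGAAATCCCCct

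The Nfkb2 window printed here, the first of its 3, has matches that begin 39, 38 and 11 bases before the start. The first reads GGGAATTCCC on both strands, and the last reads GGGGCTTTCC on the gene's strand. The other RefSeq starts of Nfkb2, whose windows overlap each other, share GGGACTTTCC, and the earlier of them also holds GGGACATTCC on the other strand. The Rel window has GGGAAATCCC beginning 92 bases before the start. In the Nfkbia window GGGAATTTCC lies on the other strand 29 bases before the start, and in the Nfkbie window GGGGGATTCC lies 106 bases before it. Tnfaip3 has GGGACACCCC at 125 bases and GGGGATTTCC on the other strand at 12 bases before 1 of its 2 starts and no match at the other. Bcl3 has GGGAAGTCCC 3 bases after its start. The window of Rela holds 4 matches of the looser pattern, both strands counted, and 0 of the consensus.

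**Figure D4:**
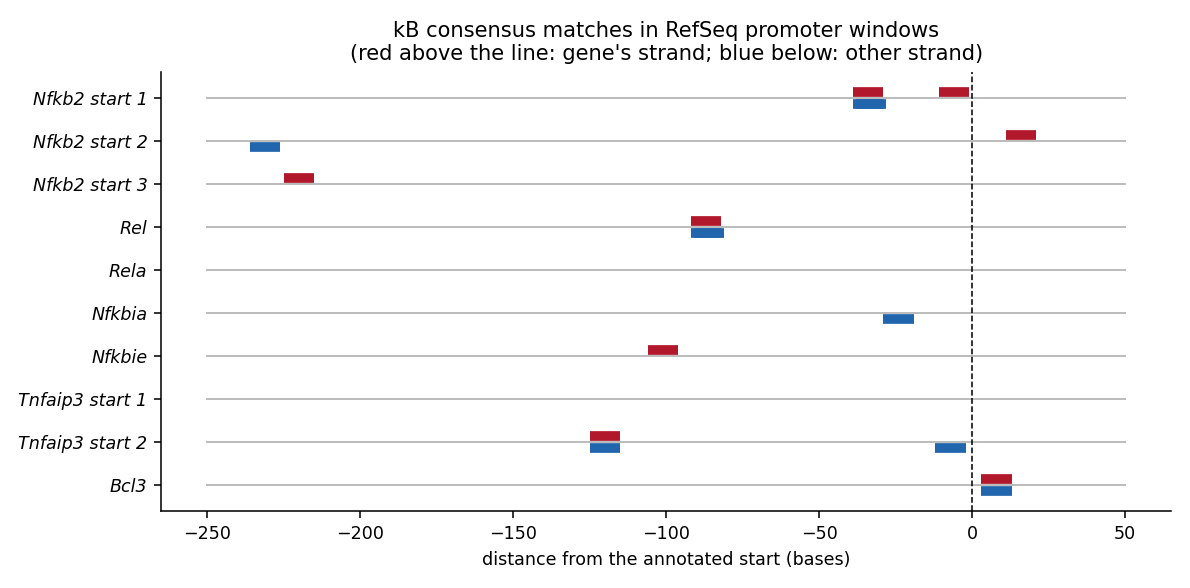
Position of kB consensus matches (blocks of 10 bases) in the 10 RefSeq promoter windows of 7 genes, as the distance from the annotated start in bases; starts of 1 gene are numbered by position on the chromosome. Matches on the gene's strand are red and above the line, those on the other strand blue and below it. Rela and 1 of the starts of Tnfaip3 have none.

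The rest of the pathway was described by 4 lists. Upstream, 16 of 21 ligand and receptor genes were tested, and the other 5 (Lta, Il1a, Cd40lg, Tnfsf11 and Tnfrsf13c) had too few counts. Of the 16, 6 rose at day 5, 13 at day 14 and 13 at day 21, and 0 fell in edgeR at an adjusted p under 0.05, with median log2 fold changes of 0.54, 2.42 and 1.45. Over all genes, 9.77, 31.2 and 24.3% were called higher at these days. Without day-21 replicate 2, 15 of the 16 rose at day 21. Tlr2, a receptor for bacterial lipoproteins, rose by 3.08 ± 0.34, 4.87 ± 0.36 and 3.07 ± 0.34 at the 3 days. Tnfrsf12a, the receptor of the cytokine TWEAK, which is known to act through the non-canonical pathway, rose by 3.04 ± 0.39 at day 5. Tnfrsf1b, the second receptor of tumour necrosis factor, rose by 2.97 ± 0.22 at day 14 and 1.73 ± 0.22 at day 21. Tnf itself had 6 counts in the 3 control libraries together, 10 at day 5, 193 at day 14 and 86 at day 21, and rose by 4.50 ± 0.51 at day 14 (adjusted p = 5.62e-05) and by 3.51 ± 0.53 at day 21 (adjusted p = 0.0013).

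The adaptors and kinases between receptor and inhibitor changed by smaller amounts, and not in 1 direction. Of 25 tested, 7 rose and 0 fell at day 5, 13 rose and 3 fell at day 14, and 8 rose and 3 fell at day 21, with medians of 0.19, 0.27 and 0.08. Of all genes, 9.77, 31.2 and 24.3% were called higher and 14.9, 60.0 and 42.8% in either direction. Taken in either direction, the 16 and 11 of 25 called at days 14 and 21 were near the share over all genes. The day-21 split was 11 and 3 without day-21 replicate 2, 21 and 1 under library totals alone, 8 and 1 with no filter on low counts, and 3 and 1 with only the 6 libraries fitted. Birc2, a ubiquitin ligase of the receptor complexes, rose by 0.58 ± 0.09, 1.65 ± 0.09 and 0.77 ± 0.09. Map3k14, the kinase that starts the non-canonical pathway, rose by 0.60 ± 0.12 at day 5 and 1.51 ± 0.12 at day 14 (adjusted p = 7.7e-06). Ikbke, an IKK-related kinase, rose by 2.12 ± 0.28 at day 14 and 1.39 ± 0.28 at day 21. Its day-21 call was lost with only the 6 control and day-21 libraries fitted (adjusted p = 0.0544). Chuk, the IKK-alpha kinase on which the non-canonical pathway depends, fell by 1.22 ± 0.14 at day 14 (adjusted p = 6.71e-05) and by 0.82 ± 0.14 at day 21 (adjusted p = 0.00242). Irak1 fell by 0.34 ± 0.07 and Map3k7 fell by 0.31 ± 0.09 at day 14, but with libraries scaled to their totals alone they were 0.39 and 0.42 above control. That scaling moved the median of all genes at day 14 from 0.077 to 0.805 and gave 24 rises and 1 fall among the 25 genes, Chuk being the fall. Without day-21 replicate 2, 11 of the 25 rose and 2 fell at day 5. Tab2, an adaptor, rose by 0.42 ± 0.08 at day 5, a call lost without control replicate 3 (adjusted p = 0.0529), and Irak4 rose by 0.53 ± 0.09 at day 21. Irak1 and Map3k7 fell by 0.25 ± 0.07 (adjusted p = 0.0157) and 0.26 ± 0.09 (0.0351) at day 21. Both calls were lost with no filter on low counts (0.0641 and 0.0754) and with only the 6 libraries fitted (0.129 and 0.148). That for Map3k7 was also lost with the replicate block (0.0517) and without some single libraries.

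Of 13 other inhibitors, 3 rose and 0 fell at day 5, and 6 rose and 4 fell at both day 14 and day 21, with medians of 0.20, 0.07 and 0.04. Of all genes 9.77, 31.2 and 24.3% were called higher and 14.9, 60.0 and 42.8% in either direction. At day 21 the split was 6 and 4 also without day-21 replicate 2, but 8 and 0 under library totals alone and 3 and 0 with only the 6 libraries fitted. Nfkbid, another nuclear IkB protein, rose by 2.50 ± 0.39, 4.13 ± 0.38 and 2.78 ± 0.39 at days 5, 14 and 21. Tnip1 and Tnip3, which encode binding partners of the Tnfaip3 product, rose by 1.87 ± 0.16 and 4.19 ± 0.41 at day 14, and Tnip1 by 0.89 ± 0.16 at day 21. Those that fell at day 14 were Tax1bp1, Itch and Rnf11, partners of the same enzyme, and Otulin, a deubiquitinase, with log2 fold changes of -0.67, -0.33, -0.89 and -0.18. These 4 were named after their values were seen, and with libraries scaled to their totals alone 11 of the 13 genes rose and 0 fell at day 14. Nfkbib, the gene of IkB-beta, also named after its value was seen, was at 0.01 ± 0.08 at day 14 (adjusted p = 0.903). Irak3 rose by 1.34 ± 0.29 at day 5, a call lost without control replicate 3 (0.0561) or day-5 replicate 3 (0.0509).

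Of 27 known NF-kB target genes 25 were tested, and Csf2 and Ptx3 had too few counts. At day 5, 15 rose and 0 fell, at day 14, 21 rose and 2 fell, and at day 21, 19 rose and 1 fell, with medians of 1.14, 2.88 and 1.503. Of all genes 9.77, 31.2 and 24.3% were called higher and 14.9, 60.0 and 42.8% in either direction. At day 21 the split was also 19 and 1 without day-21 replicate 2. Counts of the chemokine gene Cxcl2 summed to 5 over the controls and to 643 over the day-5 libraries, a rise of 6.84 ± 0.56. Ccl2, the monocyte chemokine, rose by 3.57 ± 0.33, 6.99 ± 0.34 and 4.66 ± 0.33. Cd83, a surface protein of activated leukocytes, rose by 3.33 ± 0.17 at day 14. Lcn2, which also stands among the injured-tubule markers, rose by 7.57 ± 0.65 and 7.3 ± 0.65 at days 14 and 21, and Vcam1, on both lists too, rose by 6.45 ± 0.35 at day 14 and 4.10 ± 0.32 at day 21. Sod2, the mitochondrial superoxide dismutase, went the other way: it fell by 1.78 ± 0.29 at day 14 (adjusted p = 0.000448) and by 0.93 ± 0.28 at day 21 (adjusted p = 0.0245). The day-21 call for Sod2 was lost without control replicate 1, 2 or 3 (adjusted p = 0.0524, 0.0558 and 0.0612) without day-21 replicate 1 (0.0731) or 3 (0.0912), and with only the 6 libraries fitted (0.121), while without day-21 replicate 2 Sod2 was at -1.49 (2.07e-08). Plau, urokinase, fell by 0.38 ± 0.15 at day 14 (adjusted p = 0.0467), a call lost in limma-voom (0.0539), without control replicate 1 (0.116) or 2 (0.102), and without any 1 of the day-5 and day-14 libraries (0.0538 to 0.141). It was 0.35 above control under library totals alone.

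**Figure D5:**
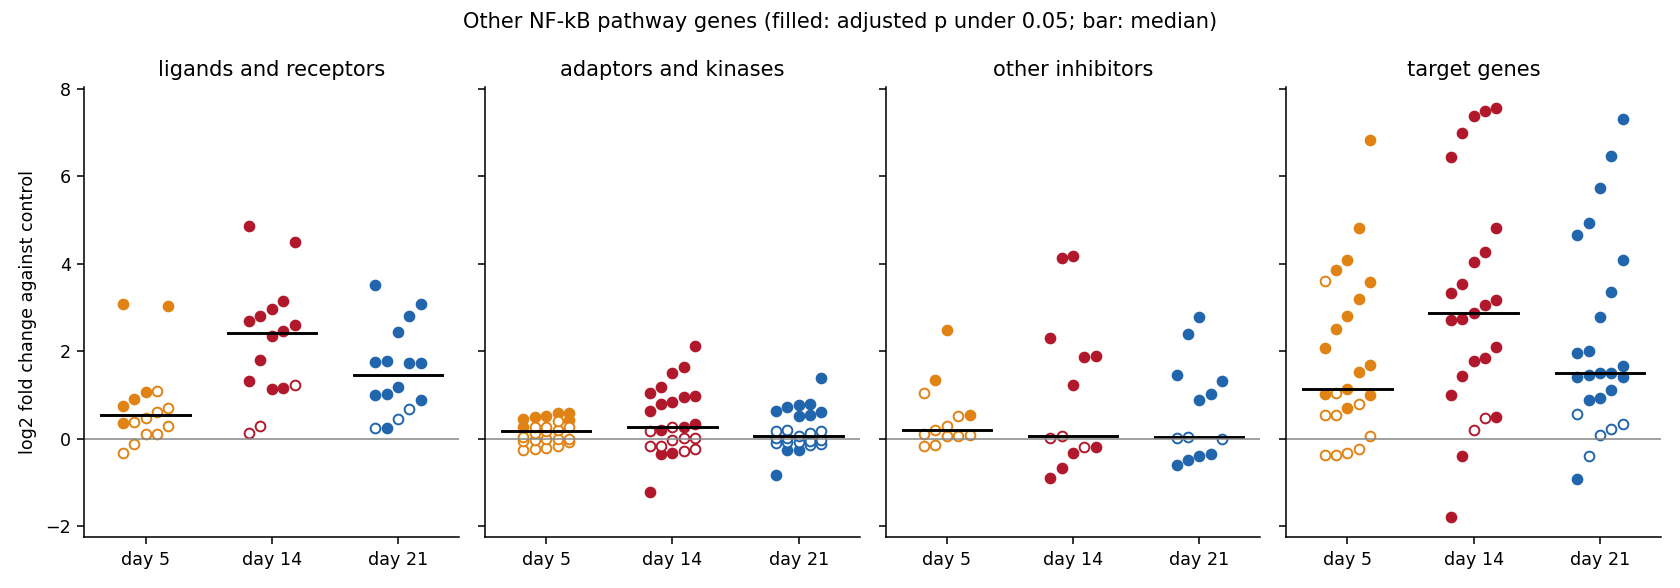
Log2 fold change against control of the tested genes of 4 pathway lists at day 5, day 14 and day 21, 1 point per gene, filled where the adjusted p was under 0.05, with the median as a bar. Medians of the target genes are 1.14, 2.88 and 1.503, while those of the adaptors and kinases are 0.19, 0.27 and 0.08.

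NF-kB genes are expressed by leukocytes as well as by kidney cells, so leukocyte markers are set beside them. The summed level of 12 macrophage and monocyte markers was 85.9 to 113 CPM in controls and 99.4 to 114 CPM at day 5, so these ranges overlapped. At day 14 it was 929 to 961 CPM and at day 21 it was 262 to 531 CPM. The day-5 sum joins markers that moved apart. Csf1r, the largest of the 12 in controls at 42.7 to 53.1 CPM, was at 28.3 to 32.1 CPM at day 5. Cd68, Itgam, C1qa, C1qb, C1qc, Fcgr1 and Ccr2 had all 3 day-5 libraries above all 3 controls, as did 25.2% of all genes. Adgre1, Lyz2, Mrc1 and Ly6c2 overlapped the controls. Of the 12, 2 rose and 1 fell at day 5, 12 rose at day 14 and 10 rose at day 21. Over all genes, 9.77, 31.2 and 24.3% were called higher at these days and 14.9, 60.0 and 42.8% in either direction. Without day-21 replicate 2, 8 of the 12 rose and 1 fell at day 5, where 17.4% of all genes were called higher. The 3 markers of all leukocytes (Ptprc, Coro1a and Laptm5) summed to 16.7 to 20.02, 26.9 to 29.0, 130 to 141 and 41.6 to 75.8 CPM over control, day 5, day 14 and day 21. At day 5, 1 of the 3 rose, and all 3 rose at the later days. Without day-21 replicate 2 all 3 rose at day 5 as well. T cell markers (7) summed to 1.88 to 2.70 CPM in controls, 2.99 to 4.36 CPM at day 5 and 9.16 to 9.50 CPM at day 14, with 1 and 7 of 7 higher at these days. At day 21 they summed to 5.50 to 6.88 CPM, with 4 of 7 higher. B cell markers (5) summed to at most 1.87 CPM in any library, with 2 of 5 tested. The 6 neutrophil markers summed to 0.181 to 0.237 CPM in controls and 0.924 to 1.64 CPM at day 5. At day 14 they summed to 2.30 to 2.75 CPM and at day 21 to 1.25 to 2.75 CPM. The 2 tested, S100a8 and S100a9, rose at day 5 by 2.80 ± 0.55 (adjusted p = 0.00654) and 2.36 ± 0.47 (0.00709). Both were also called higher at days 14 and 21. Ly6g was at 0 in all control and day-5 libraries. The 5 dendritic cell markers summed to 7.93 to 8.84 CPM in controls, 9.17 to 10.5 CPM at day 5 and 23.0 to 25.1 CPM at day 14. At day 21 they summed to 9.50 to 11.2 CPM. Of the 5, 0 passed at day 5, 5 rose at day 14 and 2 at day 21. Zbtb46 alone was at 5.68 to 6.29 CPM in controls. The 5 injured-tubule markers summed to 13.6 to 16.8 CPM in controls, 315 to 519 CPM at day 5, 2005 to 2062 CPM at day 14 and 321 to 984 CPM at day 21. The part of these cell types in the NF-kB gene levels was not tested.

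Genes outside the family with the most similar levels over the 12 libraries were found among 13957 genes by Pearson's r of log2 CPM, as a description that shares the group structure and depth of all libraries. Nearest were Cdk6 to Nfkb1 (r = 0.994), Aldh18a1 to Nfkb2 (0.992), Man1c1 to Rel (0.994), Ppp1r12a to Rela (0.994) and Birc3, a listed target, to Relb (0.988). For the inhibitors they were Zfp948 to Nfkbia (0.975), Arl6ip5 to Nfkbie (0.986), Bdkrb2 to Nfkbiz (0.989), Stx11 to Tnfaip3 (0.994) and Sbno2 to Bcl3 (0.989).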

How the data were processed

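Whole-kidney RNA was read by poly(A)-selected RNA sequencing, per the labels' protocols, in 12 libraries, which the design text calls biological replicates. The authors deposited 1 table of raw counts per gene with gene lengths. The submitters' processing notes name fastp 0.20.0, featureCounts and GRCm39. Aligner, annotation release and strand setting: not given in the sources used here.

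Columns were matched to samples by name. Counts were fitted with edgeR 4.0.16 in R 4.3.3: filterByExpr left 19821 genes, TMM factors scaled the libraries, and a quasi-likelihood model had 1 coefficient per group over all 12 libraries. P-values were adjusted by Benjamini-Hochberg over all genes within each of 6 comparisons and for the 3 days jointly, with calls under 0.05. SE is the log2 fold change over the root of F. The fit was also run on counts simulated from control levels and control spread, with balanced rises and falls in a small set of genes. That run does not cover broad change as at day 14 or a library apart from its group, so it is no check for those.

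The 10 genes, the lists, the tests and the naming rule were chosen with earlier results of these data known. All 10 genes were named, and of each list, per comparison with control, the called members with the 2 smallest adjusted p and the largest change. Where 3 or fewer called members went against the direction of most of the list, those were named too. Of the other inhibitors 4 fell at day 14 and at day 21, so the rule named none of these. Tnf and Vcam1 at day 14, Nfkbib and the listed inhibitors that fell at day 14 were named outside this rule. Alternatives were median-of-ratios factors, library totals, DESeq2 1.42.0, limma-voom (limma 3.58.1), no filter, a CPM of at least 1 in 3 libraries, the replicate block, a fit restricted to the 6 libraries of a comparison, and omission of each library in turn.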

Additional observations from a re-analysis of the deposited data

Results flagged for a closer look

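The change from control differed between days, by a test of the days against each other in edgeR with Benjamini-Hochberg adjustment, for 9 of the 10 genes between days 5 and 14, for 8 between days 14 and 21 and for 1 between days 5 and 21. From day 5 to day 14 the log2 differences were 2.07 for Nfkbie, 1.85 for Bcl3, 1.65 for Tnfaip3, 1.54 for Relb, 1.52 for Nfkbiz, 1.48 for Rel, 1.04 for Nfkb1, 0.99 for Nfkb2 and 0.88 for Rela. From day 14 to day 21 they were -1.82 for Tnfaip3, -1.51 for Bcl3, -1.49 for Nfkbie, -1.3 for Relb, -1.27 for Nfkb2, -0.98 for Rel, -0.97 for Nfkb1 and -0.601 for Rela. From day 5 to day 21 the difference was 1.11 for Nfkbiz. Adjusted p-values ran from 0.000112 (Nfkb1) to 0.00302 (Nfkbiz) in the first of these comparisons and from 0.00106 (Nfkb1) to 0.0384 (Rela) in the second.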

How the results depend on the processing

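All 10 genes kept their direction in each comparison with control and from day 5 to day 14 and day 14 to day 21, under every alternative run. Counts of the 10 genes called stayed within 1.5 times of the value reported, apart from these: a fit of only the 6 libraries compared called 3 between days 14 and 21 and 0 between days 5 and 21. Between days 5 and 21, where 1 was called, library totals alone gave 3, and DESeq2 and a CPM minimum gave 2 each. Leaving out 1 library gave from 0 to 7 there. It gave 6 to 10 at day 5, 10 to 10 at day 14 and 9 to 10 at day 21 against control, and 9 to 10 and 6 to 9 between days 5 and 14 and days 14 and 21. Among the 10 genes, signs changed only between days 5 and 21: with 1 library left out, Nfkb1 ran from -0.021 to 0.209, Relb from -0.112 to 0.523, Nfkbia from -0.372 to 0.37 and Tnfaip3 from -0.427 to 0.093, in each case from without day-21 replicate 3 to without day-21 replicate 2. Under library totals Nfkb2 was at 0.101 and Tnfaip3 at 0.227, and in limma-voom Nfkbia was at -0.049. Under library totals Irak1 and Map3k7 were at 0.39 and 0.42 at day 14 and at 0.23 and 0.22 at day 21, and Plau was at 0.35 at day 14.

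Over all genes, a fit of the 6 libraries compared called 6982 at day 5 (2945 in the fit of all libraries), 1631 at day 21 (8490), 263 between days 14 and 21 (2893) and 506 between days 5 and 21 (5325). Leaving out 1 library gave 1570 to 6691 at day 5, 4918 to 12738 at day 21, 852 to 4951 between days 14 and 21 and 2089 to 11506 between days 5 and 21. The highest of each came without day-21 replicate 2. Under library totals the share of called genes that were higher went from 65.7 to 77.7%, from 52.1 to 85.6% and from 56.8 to 88.3% at days 5, 14 and 21. Among the pathway lists, adaptors and kinases called at day 5 numbered 4 under library totals, 13 in the fit of 6 libraries and 2 to 13 with 1 library left out (7 in the fit of all). At day 14 and day 21 library totals called 25 and 22 of them, 24 and 21 as higher (16 and 11, with 13 and 8 higher), and the fit of 6 libraries called 4 at day 21. Other inhibitors called were 6 at day 5 and 3 at day 21 in the fit of 6 libraries (3 and 10), and 1 to 6 at day 5 with 1 library left out. Causes were not tested.

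With the replicate block, 9, 10 and 10 of the 10 genes were called against control at days 5, 14 and 21, the same numbers as without it, and 9, 8 and 1 between days. Libraries of 1 number correlated at -0.14 to 0.171 in their deviations from group means, over 0.1 in 4 of 18 pairs, and 6 of 12 libraries correlated best with their own number, so the numbers were not taken as pairs.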
